A study of Mus musculus with 20 samples.

Results

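A group of 21 genes was examined in p19/Nras, a line of murine liver cancer cells that lacks p19/Arf and carries Nras, and in which Trim33 had been targeted by CRISPR. The genes were chosen by their levels in the Myc experiment, in which each of 12 RNA-seq libraries was expressed as CPM (counts-per-million of the library total). A gene was taken if WT Ctrl and WT Myc each averaged at least 5 CPM and if the smaller of these means, plus 0.5, was at least 4 times the largest mean of the 4 KO groups, plus 0.5. Of 13107 genes in the table, 10053 reached the WT level and 23 met both conditions. Grem1 and Peg3 were then left out by name, which left 21 genes, 0.209% of those at the WT level. Since the WT and KO libraries of the Myc experiment selected the genes, their levels there are given as a description and were not tested.

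The Myc experiment had 6 groups of 2 libraries. WT Ctrl and WT Myc cells carried a control guide, sgCtrl, and cells of the KO1 and KO2 lines received sgTrim33. Cells labelled Ctrl had the pWZL vector and cells labelled Myc had Myc. A separate HU experiment had 4 groups of 2 libraries, sgCtrl and sgTrim33 cells given vehicle (called untreated) or 1 mM hydroxyurea (HU), which depletes deoxynucleotides and stalls replication forks, for 4 h. The labels state neither which KO line was used in the HU experiment, nor whether a line is 1 clone, nor whether libraries of a group came from separate cultures, so p-values measure only the spread between these libraries, which may be technical. All groups share the p19-null, Nras-driven background. Libraries of the Myc experiment held 14753177 to 17949430 counts, and those of the HU experiment 2315327 to 3082202.

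Trim33, also called Tif1γ, is a ubiquitin ligase of the tripartite motif family with a PHD finger and a bromodomain through which it binds modified histones, and it is best known as a partner and antagonist of Smad4 in TGF-beta and BMP signaling. The 21 genes do not belong to 1 pathway. They include enzymes that relay signals from membrane receptors, such as phospholipases, MAP kinases and regulators of small GTPases, and secreted factors, among them a BMP ligand. In bulk RNA, fewer cells that use a gene and less RNA per cell cannot be told apart.

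The Trim33 transcript was checked first. With the Ctrl vector, WT held 236 and 247 CPM, KO1 held 122 and 130, and KO2 held 204 and 210. Libraries labelled WT Myc were at 132 and 158 CPM, those labelled KO1 Myc at 186 and 195, and those labelled KO2 Myc at 125 and 126. The transcript was therefore lower in KO than in WT with the Ctrl vector, but the libraries labelled KO1 Myc were above those labelled WT Myc. A guide that disrupts the reading frame need not lower the transcript, and the reason for this order was not tested. Below, WT Myc, KO1 Myc and KO2 Myc mean the libraries so labelled. The KO line labels also crossed between the vectors. Of 173 genes at least 4-fold apart between KO1 Ctrl and KO2 Ctrl, 172 had the opposite order between KO1 Myc and KO2 Myc. The rule takes the largest of the 4 KO means, so that exchanging KO1 Myc and KO2 Myc gives the same genes. It does depend on the label WT Myc, which was not tested. Across genes with a group mean of at least 5 CPM, WT Myc correlated at 0.963 with KO1 Myc, 0.959 with WT Ctrl and 0.935 with KO2 Myc. In the HU experiment WT libraries held 141 and 127 CPM of Trim33 with vehicle and 145 and 142 with HU, and KO libraries 49.9 and 43.0 with vehicle and 50.1 and 51.5 with HU, as labelled.

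The summed level of the 21 genes was 436 CPM in WT Ctrl and 475.8 in WT Myc, against 16 in KO1 Ctrl, 25.1 in KO2 Ctrl, 28.6 in KO1 Myc and 13 in KO2 Myc. The ratio used by the rule ran from 4.11 for Clstn3 to 41.4 for Erfe, with a median of 11.3. The word lost holds to different degrees within the group. In 5 genes every KO library had at most 3 counts, and in 9 at most 10 counts. Over the group, 8 genes exceeded 1 CPM in at least 1 KO group, and 2, Ecscr and Fmnl2, did so in all 4.

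**Figure D1:**
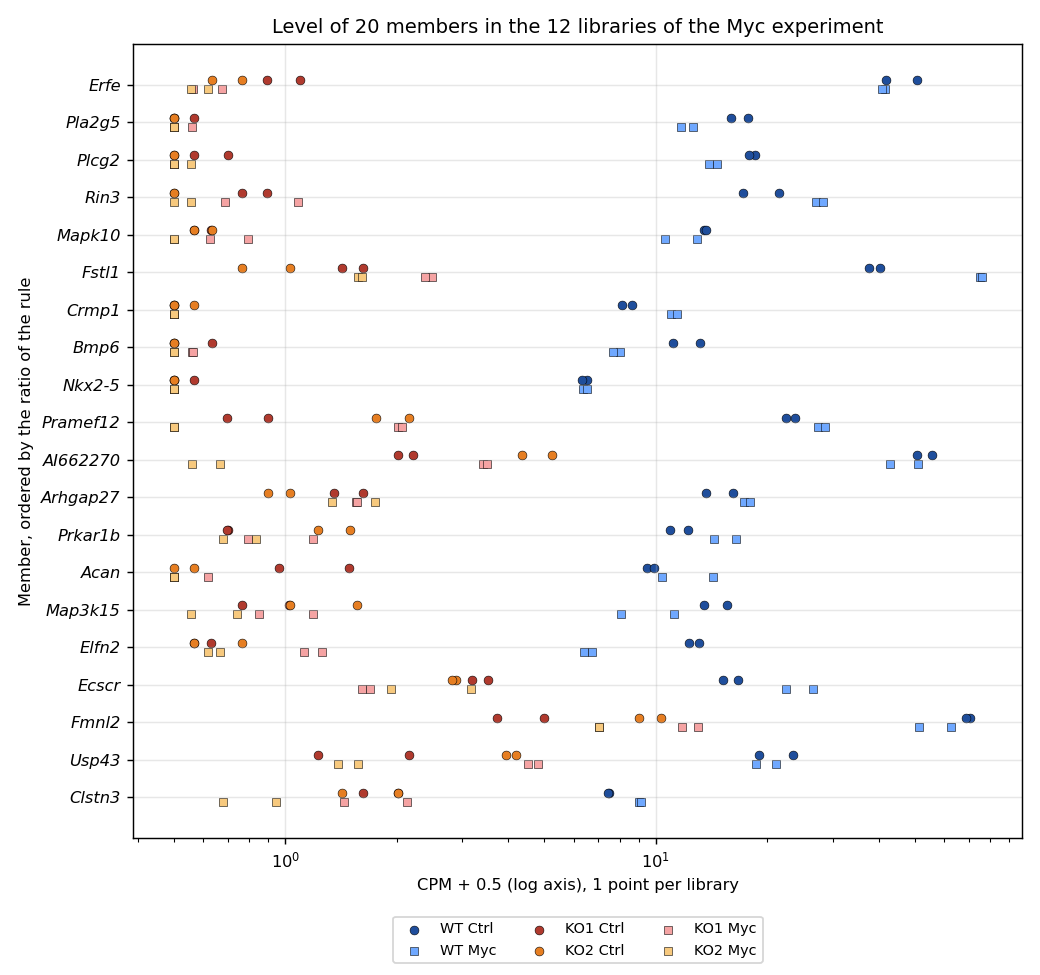
CPM plus 0.5, on a log axis, of 20 of the genes in the 12 libraries of the Myc experiment, with 1 point per library, circles for Ctrl, squares for Myc, blue for WT and red or orange for KO. WT and KO points are separate for every gene shown, whereas the rule requires this of the group means only. KO points of Fmnl2, Usp43, Ecscr, Clstn3 and AI662270 lie farther from the left edge, at 0 CPM, than those of Nkx2-5, Crmp1 and Pla2g5.

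Signaling enzymes and their regulators formed the largest role group, with 7 of the 21 genes. Plcg2 encodes phospholipase C gamma 2, which cleaves PIP2 downstream of tyrosine kinases and is best known from B cells and myeloid cells. Plcg2 (chr8:120022191-120159040 in mm9, plus strand) was at 18 and 17.3 CPM in WT Ctrl and at 13.4 and 14.1 in WT Myc. The 8 KO libraries held 3, 1, 0, 0, 0, 0, 0 and 1 counts of it, in the order KO1 Ctrl, KO2 Ctrl, KO1 Myc and KO2 Myc, against 204 to 265 counts in the WT libraries. Plcg2 was thus at or under 3 counts in every KO library. Pla2g5, a secreted phospholipase A2, was at 17.2 and 15.5 CPM in WT Ctrl and at 12.1 and 11.2 in WT Myc. It had 0 counts in 6 of 8 KO libraries and 1 count in each of the other two.

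Rin3 and Arhgap27 act on small GTPases. Rin3 (chr12:103521258-103629065, plus strand) binds Ras and activates Rab5, a GTPase of early endosomes. It was at 16.7 and 21 CPM in WT Ctrl and at 26.6 and 27.8 in WT Myc. Its KO libraries held 4, 6, 0, 0, 10, 3, 0 and 1 counts. The highest of these, 0.584 CPM in KO1 Myc replicate 1, was far below the lowest WT library. Arhgap27, which acts as a GTPase-activating protein, was at 15.7 and 13.2 CPM in WT Ctrl, 16.8 and 17.5 in WT Myc, and at 0.398 to 1.25 in the KO libraries. Arhgap27 was detected in all 8 KO libraries, and its highest KO group mean was 7.34% of the lower WT mean.

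Both kinases of the group belong to stress-activated MAP kinase cascades. Mapk10, or JNK3, is known mainly from neurons. It was at 13 and 13.2 CPM in WT Ctrl, 10.1 and 12.4 in WT Myc, and at 0 to 0.292 in the KO libraries. Map3k15, or ASK3, acts upstream of JNK and p38. It was at 13 and 15.1 CPM in WT Ctrl, 7.57 and 10.7 in WT Myc, and 0.0557 to 1.06 in the KO libraries. Prkar1b (chr5:139493260-139625955, minus strand) encodes a regulatory subunit that holds protein kinase A inactive until cAMP binds. It was at 11.7 and 10.4 CPM in WT Ctrl, 13.9 and 16 in WT Myc, and 0.179 to 0.994 in the KO libraries, with KO2 Ctrl highest at 0.994 and 0.727.

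Nkx2-5, a homeobox transcription factor of the heart field, was the sole member from the list of transcription factors. Nkx2-5 (chr17:26975609-26978510, minus strand) was at 6.03 and 5.83 CPM in WT Ctrl and at 5.86 and 6.03 in WT Myc. It had 0 counts in 7 of 8 KO libraries and 1 count in KO1 Ctrl replicate 1. Its level in the 4 WT libraries differed less between vectors than within either pair.

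The promoters of Plcg2, Nkx2-5, Rin3 and Prkar1b are printed because these 4 genes were at 0 counts in both libraries of at least 1 group of the HU experiment, and in both directions. Each line holds the 250 bases before the RefSeq start (table for GRCm38.p6), 5′ to 3′ on the gene's strand, with CpG dinucleotides in capitals. Each was placed on mm9 by its only exact match, at chr8:120021925-120022174 for Plcg2, chr17:26978511-26978760 for Nkx2-5, chr12:103521034-103521283 for Rin3 and chr5:139626658-139626907 for Prkar1b. The Rin3 stretch runs past the start that GENCODE M1 gives, and that of Prkar1b lies upstream of the GENCODE M1 gene.
Plcg2: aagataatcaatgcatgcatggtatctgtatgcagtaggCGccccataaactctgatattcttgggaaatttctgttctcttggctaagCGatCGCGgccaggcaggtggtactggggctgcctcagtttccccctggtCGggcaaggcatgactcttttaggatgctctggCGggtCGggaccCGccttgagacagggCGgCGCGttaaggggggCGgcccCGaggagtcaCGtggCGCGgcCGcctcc
Nkx2-5: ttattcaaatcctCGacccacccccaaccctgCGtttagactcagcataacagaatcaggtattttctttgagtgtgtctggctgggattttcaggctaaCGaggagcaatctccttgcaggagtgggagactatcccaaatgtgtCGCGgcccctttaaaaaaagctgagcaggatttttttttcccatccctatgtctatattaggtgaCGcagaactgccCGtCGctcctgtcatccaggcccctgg
Rin3: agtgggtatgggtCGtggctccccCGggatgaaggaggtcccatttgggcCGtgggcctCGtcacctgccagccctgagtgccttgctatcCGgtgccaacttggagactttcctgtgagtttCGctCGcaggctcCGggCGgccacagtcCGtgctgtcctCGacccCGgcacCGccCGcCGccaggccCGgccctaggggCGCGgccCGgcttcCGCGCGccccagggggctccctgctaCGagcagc
Prkar1b: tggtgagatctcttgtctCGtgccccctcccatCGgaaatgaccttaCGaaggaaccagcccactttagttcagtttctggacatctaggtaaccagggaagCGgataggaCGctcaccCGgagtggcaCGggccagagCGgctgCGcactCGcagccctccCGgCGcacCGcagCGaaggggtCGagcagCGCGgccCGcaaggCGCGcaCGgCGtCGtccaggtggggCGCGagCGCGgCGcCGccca
The stretches hold 17 CpG dinucleotides in Plcg2, 8 in Nkx2-5, 23 in Rin3 and 29 in Prkar1b. Near the end of the Plcg2 stretch lies a CACGTG, the E-box bound by Myc and Max (printed as caCGtg).

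RefSeq promoter windows, from 250 bases before to 50 after the start, were matched for 16 of the 21 genes and for 9796 genes of the Myc table. Usp43, Ecscr, Map3k15 and AI662270 had no entry. The ratio of observed to expected CpG had a median of 0.74 in the 16 windows and 0.77 over all windows, and exceeded 0.6 in 10 of the 16 and in 73.1% of all. The windows thus spanned both CpG-poor and CpG-rich promoters, from Pla2g5 at 0.31 and Clstn3 at 0.33 to Prkar1b at 1.02 and Fmnl2 at 1.09. GC content had a median of 66.7% against 61%. A set of motifs was searched on both strands. CACGTG was found in the windows of Bmp6 and Plcg2 (10.2% of all windows) and GGCGGGAA, an E2f element, in that of Acan (4.26%). TATAAA, found in 7.31% of all windows, TGANTCA, an AP-1 element found in 5.18%, and GTCTAGAC, a palindromic Smad element found in 0.225%, were in none of the 16.

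**Figure D2:**
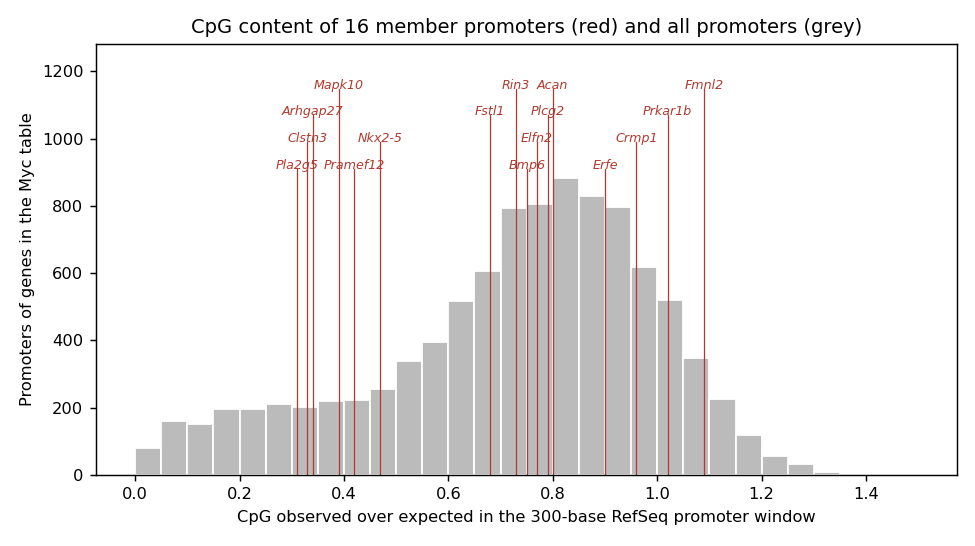
Distribution of the observed to expected CpG ratio in RefSeq promoter windows of 9796 genes of the Myc table (grey bars, number of promoters per bin), with the 16 matched members as labelled red lines. Members lie at ratios from 0.31 to 0.47 or, for 10 of them, from 0.68 to 1.09.

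Secreted proteins formed another group. Erfe, erythroferrone, is a hormone of erythroid cells that lowers hepcidin by binding BMP ligands. It was at 50.2 and 41.3 CPM in WT Ctrl, 41.0 and 40.4 in WT Myc, and 0.0557 to 0.594 in the KO libraries. Bmp6 is such a ligand, and in liver it signals through Smad proteins to hepcidin. It was at 10.6 and 12.7 CPM in WT Ctrl, 7.5 and 7.17 in WT Myc, and had 0 counts in 5 of 8 KO libraries and 1 or 2 in the others. Erfe had the largest ratio of the group, and Bmp6 was lower in both WT Myc than in both WT Ctrl libraries.

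Fstl1 is a secreted glycoprotein related to follistatin that modulates BMP signaling. It was at 39.7 and 37.1 CPM in WT Ctrl, 74.4 and 75.5 in WT Myc, and 0.264 to 1.99 in the KO libraries. It was detected in all 8 KO libraries, with the highest values in KO1 Myc. Acan encodes aggrecan, the large proteoglycan of cartilage, and was at 8.95 and 9.37 CPM in WT Ctrl, 9.87 and 13.8 in WT Myc and 0 to 0.985 in the KO libraries. The KO counts of Acan came mostly from KO1 Ctrl, with 7 and 15 of them.

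Ecscr, Clstn3 and Elfn2 encode proteins of the cell surface. Ecscr, known as an endothelial protein that promotes chemotaxis, was at 16.2 and 14.7 CPM in WT Ctrl, 26.1 and 22 in WT Myc, and 1.11 to 3.03 in the KO libraries. Clstn3, a calsyntenin of synaptic membranes, was at 6.98 and 6.94 CPM in WT Ctrl, 8.49 and 8.62 in WT Myc, and 0.179 to 1.63 in the KO libraries. Elfn2, a leucine-rich repeat protein of the membrane, was at 11.8 and 12.6 CPM in WT Ctrl, 5.92 and 6.21 in WT Myc, and 0.066 to 0.759 in the KO libraries. All 3 were detected in every KO library, and the highest KO group mean was 18.6% of the lower WT mean for Ecscr, 18.9% for Clstn3 and 11.4% for Elfn2.

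Fmnl2 and Crmp1 act on the cytoskeleton. Fmnl2, a formin that elongates actin filaments, was at 70.1 and 68.5 CPM in WT Ctrl, 51.0 and 62.0 in WT Myc, and at 3.22 to 12.5 in the KO libraries. It was therefore reduced rather than near 0, with its highest KO group mean, in KO1 Myc, at 21% of the lower WT mean. Crmp1, a collapsin response mediator of growing axons, was at 7.59 and 8.12 CPM in WT Ctrl, 10.5 and 10.9 in WT Myc, and had 1 count in KO2 Ctrl replicate 2 and 0 in the other 7 KO libraries.

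Usp43, a deubiquitinase, was at 22.9 and 18.5 CPM in WT Ctrl, 20.6 and 18.2 in WT Myc, and 0.722 to 4.32 in the KO libraries. Pramef12, of the PRAME family that is known from germ cells, was at 22 and 23.2 CPM in WT Ctrl, 26.9 and 28.1 in WT Myc, and 0 to 1.66 in the KO libraries. AI662270 (chr11:83037078-83040106, plus strand) is annotated as a processed transcript without a protein. It was at 55.2 and 50.1 CPM in WT Ctrl, 50.5 and 42.4 in WT Myc, and at 1.71 and 1.51 in KO1 Ctrl, 3.85 and 4.76 in KO2 Ctrl, 2.92 and 3.01 in KO1 Myc, and 0.0597 and 0.167 in KO2 Myc. AI662270, Usp43 and Pramef12 share an order: KO2 Ctrl lay above KO1 Ctrl and KO1 Myc above KO2 Myc, the crossing seen in the line labels. Of 9 genes with KO2 above KO1 under Ctrl, 8 had KO1 above KO2 under Myc, whereas of 12 with KO1 above KO2 under Ctrl, 3 had KO2 above KO1 under Myc.

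Per kilobase of exon, the scale on which genes can be compared, AI662270 had the highest WT Ctrl level of the 21, at 35.4 CPM, followed by Erfe at 16.3 and Fmnl2 at 11.5. Mapk10 at 1.18, Acan at 1.24 and Clstn3 at 1.4 CPM per kilobase were lowest. With 11 of the genes another annotated gene overlaps, such as Txndc5 with Bmp6 and Evc with Crmp1, and the strand setting of the counting is not given in the sources used here, so their counts may hold reads of the partner.

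Within WT, the vectors differed without a common direction. Both WT Myc libraries were above both WT Ctrl libraries in 10 of the 21 genes, against 44.2% of all genes at the WT level, and below them in 8, against 33.0%. The median log2 ratio of WT Myc to WT Ctrl was 0.0, and 0.06 over all genes at the WT level. It was lowest for Elfn2, at -1.01, followed by Bmp6, at -0.67, and Map3k15, at -0.62, and was 0.96 for Fstl1 and 0.64 for Ecscr. The rule required both WT means to be at least 5 CPM and thereby limited how far these ratios could fall.

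Gene lists by role and cell type were set beside the group. Among genes at the WT level, the list of signaling enzymes and regulators had 332 genes and 7 members, that of ligands and secreted signals 59 genes and 2 members (Fstl1 and Bmp6), and that of transcription factors 123 genes and 1 member. The other lists held none, among them 16 TGF-beta and BMP targets, 8 imprinted genes, 114 receptors, 145 innate immunity genes and 111 cytoskeleton and motor genes. Members were 0.209% of genes at the WT level, so that lists of these sizes would hold few or none in any case. Peg3, an imprinted gene, and Grem1, a BMP antagonist, met both conditions but were left out by name. The lack of imprinted members was thus partly set in advance. In all, 10 of the 21 genes were in a list and 11 in none. These lists were built from symbols and symbol prefixes, so that members such as Fmnl2 and Crmp1 fell outside the list that names their role.

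The threshold on the ratio separated genes with near values. Clstn3 at 4.11, Usp43 at 4.26 and Fmnl2 at 4.61 were just inside. Xlr3c at 3.8, Oasl1 at 3.65 and Camk1d at 3.48 were just outside. Camk1d, a calmodulin-dependent kinase, was at 39.9 and 40.7 CPM in WT Ctrl, 26.7 and 32.7 in WT Myc, and 3.81 to 8.41 in the KO libraries. Of the genes left out by name, Grem1, a BMP antagonist, was at 40.3 and 40.1 CPM in WT Ctrl and 12.4 and 13.3 in WT Myc, with 0 counts in 6 of 8 KO libraries. Peg3, an imprinted zinc finger gene, was at 57.3 and 51.7 CPM in WT Ctrl, 10.7 and 19.3 in WT Myc, and at most 0.94 in the KO libraries.

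The same rule read on the Ctrl libraries alone took 96 genes, and on the Myc libraries alone 44. Both sets held all 21, which the full rule makes certain. Of the other genes taken with Ctrl alone, 19 were under 5 CPM in WT Myc and 56 were not. The group is thus a portion of the larger set taken with the Ctrl vector alone. The full rule sets the smaller of both WT means against the largest of all KO means, also across vectors.

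The HU experiment, whose libraries were not used to choose the genes, gave a separate reading for 10 of the 21. The other 11 genes, Erfe, Pla2g5, Fstl1, Crmp1, Bmp6, Pramef12, Acan, Map3k15, Elfn2, Ecscr and Fmnl2, had no row in the HU table. They could therefore not be tested there, and why they are missing is not given in the sources used here. In untreated cells 3 of the 10 were lower in KO, 2 were higher and 5 were not called (edgeR's quasi-likelihood test on all 11210 genes, Benjamini-Hochberg adjusted p below 0.01). Over all genes, 2.52% were called lower and 3.07% higher. A gene at 0 in KO could enter the table only through WT, and a gene at 0 in WT only through KO. This holds for Plcg2 and Nkx2-5, at 0 in all KO libraries, and for Rin3, at 0 in all WT libraries. Their direction is therefore tied to having a row. The counts of calls describe the 10 genes and are no measure of the group. The median log2 fold change was -1.68 over the 10 and -0.0 over all genes, with 7 negative and 3 positive.

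AI662270, Plcg2 and Nkx2-5 were lower in KO. AI662270 was at 181 and 205 CPM in untreated WT and at 35.9 and 29.2 in untreated KO, a log2 fold change of -2.53 (SE 0.159, adjusted p = 4.95e-20 by edgeR). Its KO libraries kept 90 and 89 counts, against 420 and 535 in WT. Plcg2 was at 9.5 and 6.12 CPM (22 and 16 counts) in WT and at 0 counts in both KO libraries, at least 7.16-fold lower at a floor of 3 counts per library (adjusted p = 7.76e-05 by edgeR). Nkx2-5 was at 4.32 and 9.18 CPM (10 and 24 counts) in WT and at 0 counts in both KO libraries, at least 6.18-fold lower (adjusted p = 0.000366 by edgeR). Leaving out WT replicate 2 or KO replicate 2 moved Nkx2-5 past the threshold, to an adjusted p of 0.0143 and 0.0182 by edgeR.

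Rin3 and Prkar1b ran opposite to the Myc experiment. Rin3 had 0 counts in both untreated WT libraries and 22.4 and 10.5 CPM (56 and 32 counts) in untreated KO, at least 13.5-fold higher in KO (adjusted p = 7.98e-08 by edgeR). Prkar1b likewise had 0 counts in both WT libraries and 9.58 and 12.5 CPM (24 and 38 counts) in KO, at least 9.03-fold higher (adjusted p = 1.01e-06 by edgeR). In the Myc experiment WT Ctrl held 247 and 320 counts of Rin3 and 172 and 159 of Prkar1b. The WT cells of the experiments therefore differed in whether these genes were detected. The experiments also differed in depth, and they were not compared by a test. The promoters of these genes are the third and the last of those printed above.

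**Figure D3:**
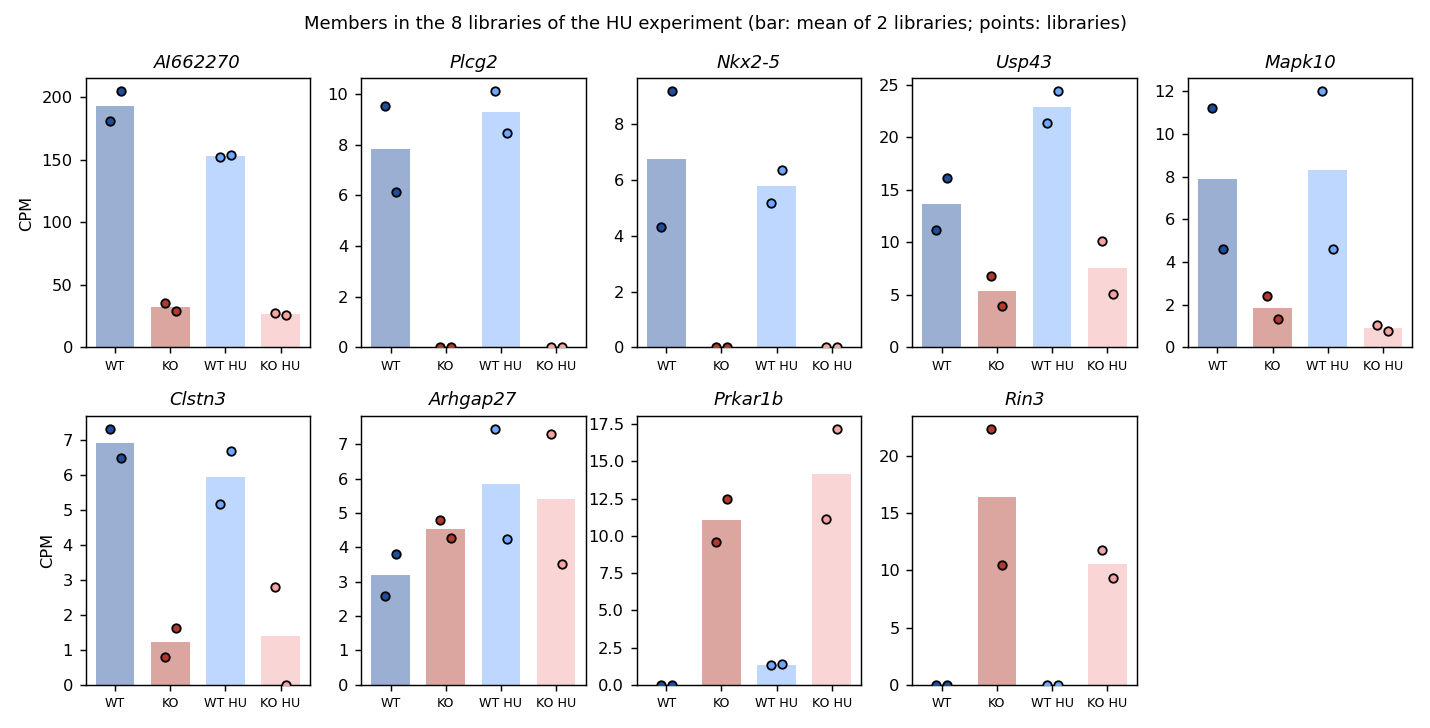
CPM of 9 members measured in the HU experiment, with bars for the mean of 2 libraries, points for the libraries, blue for WT, red for KO, and pale colors for HU; each panel has its own axis from 0. Plcg2 and Nkx2-5 are at 0 in KO, and Rin3 is at 0 in WT.

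Usp43, Mapk10 and Clstn3 had lower means in KO than in WT, but did not pass the threshold in untreated cells. Usp43 was at 11.2 and 16.1 CPM in WT and 6.79 and 3.94 in KO, a log2 fold change of -1.33 (SE 0.432, adjusted p = 0.032 by edgeR). Mapk10 was at 11.2 and 4.59 CPM in WT and 2.4 and 1.31 in KO, with -2.04 (SE 0.705, adjusted p = 0.0458 by edgeR). Clstn3 was at 7.34 and 6.5 CPM in WT and 0.799 and 1.64 in KO, with -2.38 (SE 0.792, adjusted p = 0.0363 by edgeR). Their KO libraries rest on few counts at this depth.

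Arhgap27 was not called either. It was at 2.59 and 3.82 CPM in WT and 4.79 and 4.27 in KO, a log2 fold change of 0.52 with an interval of 2 SE from -0.82 to 1.86 (adjusted p = 0.698 by edgeR). Its mean was 4.53 CPM in KO and 3.21 in WT.

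With HU, 5 of the 10 were called lower in KO than in WT, 2 higher and 3 not, against 2.77% of all genes lower and 3.27% higher. AI662270 was at 152 and 154 CPM in WT and 27.5 and 25.7 in KO, a log2 fold change of -2.47 (SE 0.165, adjusted p = 6.43e-19 by edgeR). Plcg2 was at 10.1 and 8.47 CPM in WT and Nkx2-5 at 5.19 and 6.35, both at 0 counts in KO, at least 8.37-fold and 5.21-fold lower (adjusted p = 2.35e-05 and 0.000785 by edgeR). The order seen in untreated cells was kept for these genes.

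Usp43 and Mapk10 were the additional genes called lower with HU. Usp43 was at 21.4 and 24.4 CPM in WT and 10.1 and 5.07 in KO, with a log2 fold change of -1.52 (SE 0.385, adjusted p = 0.00447 by edgeR). Mapk10 was at 12 and 4.59 CPM in WT and 1.04 and 0.78 in KO, with -3.08 (SE 0.778, adjusted p = 0.00448 by edgeR). Neither was called by DESeq2, at adjusted p = 0.0229 for Usp43 and 0.0203 for Mapk10, and the count of 5 fell to 3 without HU-treated WT replicate 1, WT replicate 2 or KO replicate 1, and to 2 without KO replicate 2. The call of Nkx2-5 with HU was lost without WT replicate 2 or without either KO replicate, and by leaving out these libraries its adjusted p rose to between 0.0103 and 0.0212 by edgeR.

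The genes higher in KO with HU were again Rin3 and Prkar1b. Rin3 was at 0 counts in WT and at 11.8 and 9.36 CPM (34 and 24 counts) in KO, at least 10.4-fold higher (adjusted p = 7.05e-07 by edgeR). Prkar1b was at 1.3 and 1.41 CPM (4 counts in each) in WT and 11.1 and 17.2 in KO, a log2 fold change of 3.38 (SE 0.605, adjusted p = 4.19e-05 by edgeR). Among those not called were Clstn3, at 5.19 and 6.71 CPM in WT and 2.79 and 0 in KO (adjusted p = 0.0933 by edgeR), and Arhgap27, at 7.46 and 4.24 in WT and 7.31 and 3.51 in KO (adjusted p = 0.966 by edgeR). The libraries of Arhgap27 overlapped between WT and KO.

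**Figure D4:**
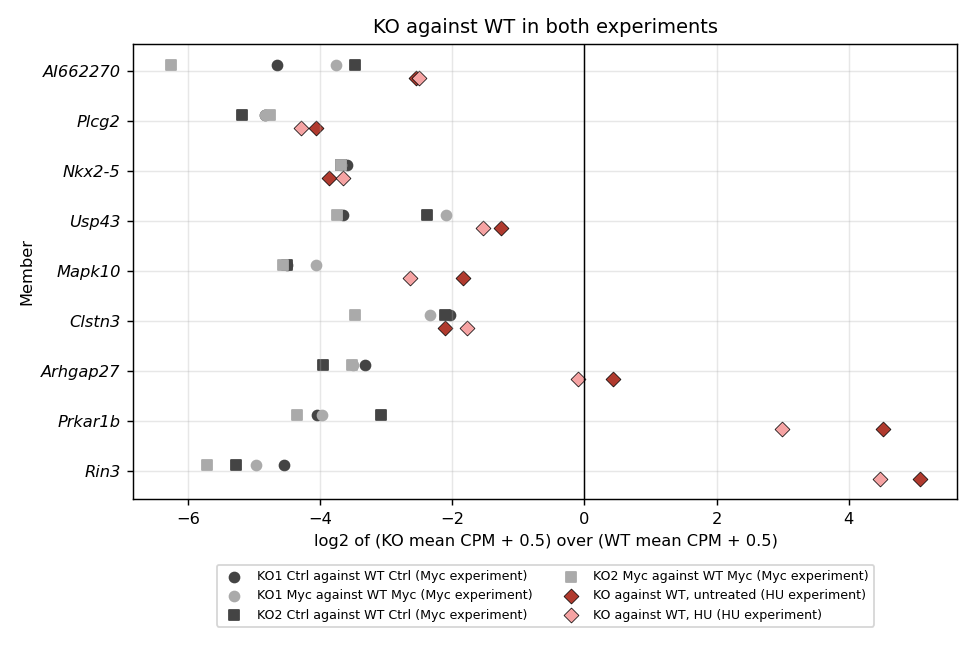
log2 ratio of KO to WT mean CPM, each plus 0.5, for 9 genes measured in both experiments, in grey and black for the KO groups of the Myc experiment and in red diamonds for the HU experiment. All points of the Myc experiment are below 0, as the rule requires, and the diamonds run from below 0 for AI662270, Plcg2 and Nkx2-5, through values near 0 for Arhgap27, to above 0 for Prkar1b and Rin3.

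None of the 10 passed the threshold for HU with the counts as listed. Among 10 genes, the shares over all genes given below also amount to few calls or none. Plcg2 and Nkx2-5 in KO, and Rin3 in WT, had 0 counts with and without HU. In WT, 0 of the 10 were called at an adjusted p below 0.05, against 9.83% of all genes, by edgeR and by DESeq2, and 4 had an unadjusted p below 0.05. Among these were AI662270, with a log2 fold change of -0.34 (SE 0.134, adjusted p = 0.0974 by edgeR), Usp43, with 0.73 (SE 0.362, adjusted p = 0.229 by edgeR), and Prkar1b, from 0 to 4 counts in each library (adjusted p = 0.0688 by edgeR). In KO, 0 of the 10 were called by either tool, against 6.45% of all genes, and 0 had an unadjusted p below 0.05. The difference of the responses was called for 0 of the 10 by either tool and for 0.0714% of all genes, with 1 member, Prkar1b, at an unadjusted p below 0.05 (adjusted p = 0.833 by edgeR).

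The genes did not lie together. They were spread over 15 chromosomes, with at most 3 on one, and the closest pair, Pla2g5 and Pramef12, was 5.56 Mb apart. None of the 42 immediate neighbours in the order of measured genes was a member. Only 2 of these, 1 each beside Crmp1 and AI662270, were at least 2-fold below the lower WT mean in every KO group, with 0.5 CPM added to each mean, and 3 of the 126 neighbours within 3 places, a level that 0.824% of all genes reached. The median log2 ratio of KO to WT was -0.1 over the immediate neighbours, 0.02 over all placed genes and -4.19 over the 21 genes.

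The neighbours that met this condition were Jakmip1, Slfn3 and Slfn2. Jakmip1, which encodes a microtubule-associated protein, lies 94.1 kb from Crmp1 and averaged 3.9 CPM in WT Ctrl, 1.74 in WT Myc and 0 to 0.0626 in the KO groups. Slfn3, 8.42 kb from AI662270, averaged 3.13 CPM in WT Ctrl, 1.75 in WT Myc and 0.0557 to 0.403 in the KO groups. The next gene in that direction is Slfn4, 33.4 kb from AI662270, which averaged 9.82 CPM in WT Ctrl, 5.62 in WT Myc and 0.287 to 2.61 in the KO groups and missed the condition through the added 0.5 CPM. Slfn2, a Schlafen gene that keeps lymphocytes quiescent, lies 153 kb from AI662270 and averaged 230.0 CPM in WT Ctrl, 199 in WT Myc, 31.5 in KO1 Ctrl, 91.3 in KO2 Ctrl, 62.4 in KO1 Myc and 6.67 in KO2 Myc. AI662270 had the same order of the KO groups. In the untreated HU experiment Slfn2 was at 122 and 132 CPM in WT and 89 and 75.5 in KO, a log2 fold change of -0.59 (SE 0.141, adjusted p = 0.00262 by edgeR), a smaller difference than that of AI662270. Among the other neighbours within 3 places, the log2 ratio of KO to WT was lowest for Ppef1, near Map3k15, at -2.34. It was highest for C1rb, near Clstn3, at 1.29. Ppef1 missed the condition, at 1.85 CPM in KO1 Myc against 3.6 in WT Myc.

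**Figure D5:**
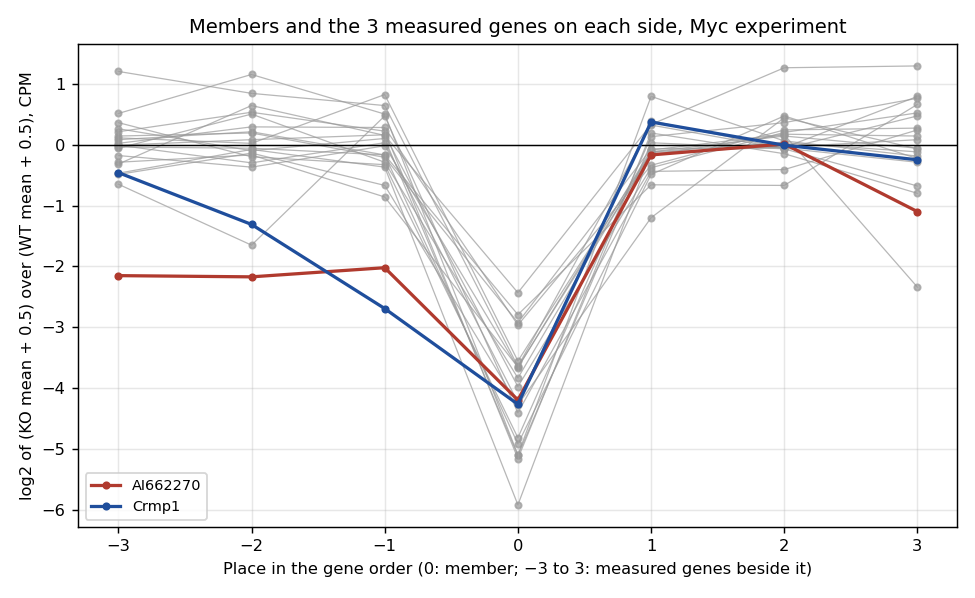
log2 ratio of KO to WT mean CPM, each plus 0.5, in the Myc experiment, for each of the 21 genes (place 0) and the 3 measured genes on each side of it in the genome, with 1 line per member. The lines drop at place 0, and the nearest genes have a median of -0.1, with the lowest values beside Crmp1 (blue, -2.69), AI662270 (red, -2.02) and Pramef12 (grey, -1.2).

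Cell type markers were counted beside these results, and none of them was a member. Of 12 hepatocyte markers, 0 had a row in either table, and the labelled cell type, HCC (hepatocellular carcinoma), is thus not marked by any of them. Of the biliary markers, Krt19, Sox9 and Spp1 had a row in both tables. Fibroblast and stellate markers, 5 of 13 in the Myc table, summed to 22.8 to 25.7 CPM in WT Ctrl, 177 to 201 in KO1 Ctrl and 108 to 116 in KO2 Ctrl, and to 48.6 to 52.3 in WT Myc, 58.6 to 61.5 in KO1 Myc and 208 to 214 in KO2 Myc. In the untreated HU experiment the single one measured, Pdgfrb, was at 13 to 16.8 CPM in WT and 4.6 to 10.4 in KO. Neuronal markers, 3 of 9, summed to 4.06 to 5.08 CPM in WT Ctrl, 38.4 to 40.1 in KO1 Ctrl and 18.5 to 21.7 in KO2 Ctrl, and to 6.87 to 7.5 in WT Myc, 4.39 to 4.96 in KO1 Myc and 16.1 to 17.8 in KO2 Myc. Of 5 fetal liver markers, Afp alone was measured. Afp was at 28.9 to 31.7 CPM in WT Ctrl, 0.791 to 0.919 in KO1 Ctrl and 8.26 to 8.68 in KO2 Ctrl. It was at 19.8 to 25.4 in WT Myc, 2.57 to 3.56 in KO1 Myc and 0.223 to 0.299 in KO2 Myc. In the HU experiment, however, Afp was at 13.8 to 17.3 in untreated WT and 24.8 to 24.9 in untreated KO. With HU it was at 11.6 to 14.3 in WT and 20.2 to 26.5 in KO. Leukocyte markers, 2 of 14, summed to 21.3 to 21.5 CPM in WT Ctrl, 43.9 to 52.5 in KO1 Ctrl and 31.1 to 34 in KO2 Ctrl, and to 32.1 to 39 in WT Myc, 35.9 to 37 in KO1 Myc and 31.7 to 32.1 in KO2 Myc. The endothelial marker measured, Eng, 1 of 10, was at 1.36 to 1.38 CPM in WT Ctrl, 2.31 to 2.43 in KO1 Ctrl and 2.84 to 2.98 in KO2 Ctrl, and at 2.9 to 3.44 in WT Myc and 2.76 to 3.34 in the KO Myc libraries. The part of these marker levels in the results on the 21 genes was not tested.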

How the data were processed

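RNA-seq libraries of p19/Nras cells were analysed from the processed tables. Per the labels, the authors mapped reads to mm9 with STAR 2.5.4 and used edgeR 3.26.8, with FastQC 0.11.5 and bcl2fastq 2.20 also listed for the HU libraries. The deposited tables hold whole-number counts per gene, although the name of 1 table calls them normalized. The counting tool, annotation, strand setting and filter are not given in the sources used here. Among counts of 1 to 50, 71.9% were even in the HU table and 48.4% in the Myc table. Why these shares differ was not tested, and calls in the HU experiment were also read with halved counts. The fold bounds given for that experiment use the counts as listed and would be smaller with halved counts. The labels name TRIzol and NEBNext Ultra II, the methods RNeasy and NEBNext Ultra. The other tables hold the authors' own comparisons (log2 fold change, average log2 CPM, F, p and adjusted p) and were not used.

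Members were found in CPM of column sums. Symbols beginning Zfp, Zscan4, Naip, Hist, Col, Itg, Lam, Mmp or Adamts were also barred, which removed no gene. Replicate libraries correlated at 0.9953 to 0.9979 (Myc) and 0.9706 to 0.9787 (HU) across genes. The HU table was fitted whole with edgeR 4.0.16 (limma 3.58.1, R 4.3.3), TMM normalization, a coefficient for each group and the quasi-likelihood test; filterByExpr removed 0 genes. Adjusted p-values below 0.01 (KO against WT) or 0.05 (HU) were called. SE is the log2 fold change over the square root of F. Where a group had 0 counts, a fold is a bound at 3 counts per library. DESeq2 1.42.0, other normalization, filters, thresholds, a replicate block, halved counts and leaving out each library were the alternatives. The procedure was tested on simulated data. Positions are from GENCODE M1, which placed 12304 genes (93.9%).

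The members and lists were chosen with earlier results of these data known. 1 member is not reported here. The text names the other members, the 3 genes nearest outside the ratio, Trim33, the genes dropped by name and the neighbours at least 2-fold lower in every KO group. Slfn4, Ppef1 and C1rb were named after their values were seen. Groups by role outside the lists were formed after the values were seen.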

Additional observations from a re-analysis of the deposited data

Results flagged for a closer look

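Rin3 and Prkar1b were opposite in direction between the experiments. In the Myc experiment every KO library was below every WT library for both genes. In untreated cells of the HU experiment both KO libraries were above both WT libraries, at least 13.5-fold for Rin3 and at least 9.03-fold for Prkar1b, with 0 counts in WT. The difference between the experiments was not tested. It cannot be told apart from a difference between the WT cells, the KO lines or the library preparations that each experiment used.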

How the results depend on the processing

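The group had 21 genes with TMM-scaled CPM, 26 at a fold of 3, and 14 at a fold of 8 or a WT level of 10 CPM, but 96 from the Ctrl libraries alone and 39 at a WT level of 2 CPM. Without 1 library it had 20 to 22, and 19 genes stayed in all cases. Clstn3 was lost without KO1 Ctrl replicate 2, KO2 Ctrl replicate 2 or KO1 Myc replicate 2, and Usp43 without WT Myc replicate 1.

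In the HU experiment, members called lower numbered 2 to 3 without 1 library in untreated cells and 2 to 5 with HU, and 3 with HU under DESeq2. Members called higher were 2 in every case run. With halved counts, Nkx2-5 and Clstn3 fell under the filter and were not tested, which left 2 members called lower in untreated cells and 4 with HU, and 1 member, AI662270, was called for HU in WT. Without 1 library 0 were called for either HU response or their difference. Arhgap27 under HU had a log2 fold change of -0.06, which turned to 0.41 without HU-treated WT replicate 1 and 0.36 without KO replicate 2, and ran down to -0.69 without KO replicate 1. Of the other single-gene values, 301 kept their direction and side of the threshold and 13 lost the call. The cause was not tested.

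Same-numbered libraries did not deviate together (correlations from -0.014 to 0.051), so no pairing by number was seen. At this depth, this cannot show whether they shared a culture. With a block for the replicate number, 3 members were called lower and 2 higher in untreated cells, and 5 and 2 with HU, as without it.

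With 2315327 to 3082202 counts per library in the HU experiment, genes near 5 CPM rest on few counts there.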

Other observations

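Grem1, left out of the group by name, was near 0 in KO in the Myc experiment but not in the HU experiment. There it was at 11.7 and 10.7 CPM in untreated WT and 5.19 and 6.24 in untreated KO, a log2 fold change of -0.91 (adjusted p = 0.225 by edgeR), and at 8.44 and 14.1 in WT and 13.2 and 5.46 in KO with HU, where the libraries overlapped.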
